A study of Mus musculus with 2 samples.

Results

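The 7 genes described here were *Ggt1*, *Ggt5*, *Alox5*, *Alox5ap*, *Lta4h*, *Ltc4s* and *Ltb4r1*, out of 32285 genes in the count tables. They were chosen by name with measured values in view. *Ggt1* was selected by its ratio between the 2 libraries, which was the highest over all cells among genes with at least 200 UMIs (unique molecular identifiers, each standing for 1 captured RNA molecule). The others belong to the synthesis and sensing of leukotrienes. All 7 had at least 200 UMIs over all cells.

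The cells came from healing skull bone. Male C57BL/6J mice, 2 months old, received a circular defect of 1.8 mm in the frontal bone. The bone around it was taken on day 7, with an edge length of about 3 mm, dissociated with collagenase and profiled by single-cell RNA sequencing on the 10x Genomics platform. The GA library came from animals that received gambogic amide, a small molecule agonist of the receptor TrkA, at 1.2 mg/kg in 10% DMSO, and the control library from animals that received 10% DMSO alone. Injections of 100 µL into the peritoneum began 24 h before the injury and were repeated daily for 1 week. Each library pooled 5 mice, so there was 1 library per condition, animals could not be told apart, and no difference between GA and control could be tested against the spread between animals. All intervals below are 95% intervals that cover counting error only.

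Leukotrienes are lipid mediators that leukocytes make from arachidonic acid. 5-lipoxygenase (*Alox5*), presented with its substrate by the membrane protein FLAP (*Alox5ap*), makes leukotriene A4. Leukotriene A4 hydrolase (*Lta4h*) turns this into leukotriene B4, a neutrophil attractant sensed by the receptor BLT1 (*Ltb4r1*), whereas leukotriene C4 synthase (*Ltc4s*) joins it to glutathione. The gamma-glutamyltransferases *Ggt1* and *Ggt5*, enzymes of the outer cell surface that also cleave glutathione itself, convert leukotriene C4 to leukotriene D4.

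On mouse build mm10, *Ggt1* lies on the plus strand of chromosome 10 at chr10:75561604-75586200 and *Ggt5* follows on the same strand at chr10:75589340-75617200, 3139 bases downstream. The gene upstream of *Ggt1* is *Lrrc75b*, on the opposite strand at chr10:75550123-75560330, with 1273 bases between them. No other annotated gene overlapped *Ggt1* (GENCODE). *Lta4h* lies on chromosome 10 as well (chr10:93453411-93484875), *Alox5* at chr6:116410077-116461178, *Alox5ap* at chr5:149264767-149288153, *Ltc4s* at chr11:50236461-50238616 and *Ltb4r1* at chr14:55765962-55768494. RefSeq start windows were found for 5 of the 7 genes, with 4 windows for *Ggt1*. The most upstream RefSeq start of *Ggt1* lies inside the gene as GENCODE draws it. The 250 bases before the most upstream start of each of the 5 genes are shown (GRCm38.p6, 5′ to 3′ on the gene's strand), because they are the regulatory sequence nearest to the genes whose levels are compared. Capitals mark PU.1-type matches (GAGGAA on either strand) and C/EBP-type matches (TTNNGNAA on either strand), after 2 transcription factor families of myeloid cells.
Ggt1, chr10:75563882-75564131 (plus strand): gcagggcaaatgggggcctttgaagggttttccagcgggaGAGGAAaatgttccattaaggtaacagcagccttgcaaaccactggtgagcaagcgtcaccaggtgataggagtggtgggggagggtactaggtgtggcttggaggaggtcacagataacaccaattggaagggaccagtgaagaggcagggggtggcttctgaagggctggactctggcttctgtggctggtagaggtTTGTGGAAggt
Alox5, chr6:116461179-116461428 (minus strand): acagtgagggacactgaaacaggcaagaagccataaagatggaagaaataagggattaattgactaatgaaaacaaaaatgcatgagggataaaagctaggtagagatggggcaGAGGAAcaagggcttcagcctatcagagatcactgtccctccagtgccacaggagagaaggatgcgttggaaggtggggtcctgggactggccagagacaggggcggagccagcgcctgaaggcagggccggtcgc
Lta4h, chr10:93453146-93453395 (plus strand): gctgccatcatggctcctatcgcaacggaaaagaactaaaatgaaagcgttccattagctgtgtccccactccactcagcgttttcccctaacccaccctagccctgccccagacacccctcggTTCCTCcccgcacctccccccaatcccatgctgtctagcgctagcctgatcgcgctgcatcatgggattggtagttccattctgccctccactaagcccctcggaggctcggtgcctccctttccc
Ltb4r1, chr14:55765712-55765961 (plus strand): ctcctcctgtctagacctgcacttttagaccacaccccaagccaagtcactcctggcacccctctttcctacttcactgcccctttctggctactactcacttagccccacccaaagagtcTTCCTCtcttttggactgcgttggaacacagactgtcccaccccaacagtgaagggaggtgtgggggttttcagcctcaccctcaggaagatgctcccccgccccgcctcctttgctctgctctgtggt
Ltc4s, chr11:50238533-50238782 (minus strand): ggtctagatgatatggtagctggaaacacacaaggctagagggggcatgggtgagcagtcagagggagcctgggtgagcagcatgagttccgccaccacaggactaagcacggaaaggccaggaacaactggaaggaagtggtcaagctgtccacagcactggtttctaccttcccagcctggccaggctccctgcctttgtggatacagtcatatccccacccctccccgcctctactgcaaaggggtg
A PU.1-type match stood in the window of 4 of these 5 genes, all but *Ltc4s*, whereas 23.3% of the 32851 start windows of the table held one. A C/EBP-type match stood only in that of *Ggt1*, against 36.8% of all windows. The other windows of *Ggt1* held neither. These matches are letters in a window and were not measured as bound.

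After filtering, 8380 GA cells and 7553 control cells remained, with a median of 10968.5 and 16299 UMIs per cell. The libraries differed in makeup. Neutrophil-like cells made up 53.3% (52.2 to 54.3%) of GA cells and 27.9% (26.9 to 29.0%) of control cells, and gave 28.0% and 8.92% of the UMIs. Macrophage-like cells were 9.56% and 18.9% of cells, and mesenchymal-like cells 5.44% and 15.7%. Cell classes were named from marker genes, and 2 sets of cells, one of them highest for mesenchymal markers, stayed unnamed. Osteoblast-like cells, named from osteoblast markers, numbered 76 in GA and 58 in control. Of the cell barcodes within the limits on UMIs, genes and mitochondrial share, 21 occurred in both libraries.

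Most *Ggt1* UMIs lay in neutrophil-like cells, and its level was higher in GA, also within these cells. Over all cells it had 579 UMIs in GA and 61 in control, or 3.61 and 0.33 CPM (the gene's UMIs scaled to a common total in each library or class). The log2 ratio of GA over control was 3.44 (3.06 to 3.85), which is the value that selected the gene. This and all other differences of *Ggt1* come from the same 2 libraries and are given as descriptions. In the GA library 94.5% of its UMIs lay in neutrophil-like cells, and in the control library 60.7%.

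Within neutrophil-like cells the 4464 GA cells held 547 *Ggt1* UMIs and the 2110 control cells held 37. These were 12.2 CPM (11.2 to 13.2) and 2.26 CPM (1.59 to 3.11). The fold was 5.39 (3.86 to 7.74), a log2 ratio of 2.43 (1.95 to 2.95) where the median gene of this class stood at -0.12. Over all cells the fold was 10.9 (8.33 to 14.4). Outside neutrophil-like cells *Ggt1* had 32 UMIs in GA and 24 in control, or 0.28 and 0.14 CPM.

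The difference was one of more cells with a *Ggt1* UMI and of more UMIs per such cell. A UMI was found in 373 of 4464 GA neutrophil-like cells, 8.36% (7.56 to 9.21%), and in 36 of 2110 control cells, 1.71% (1.20 to 2.35%). Among the cells with a UMI the mean was 1.47 in GA and 1.03 in control, and 109 GA cells but 1 control cell held 2 or more. The 5 GA cells with most *Ggt1* held 27 of the 547 UMIs.

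Depth and free RNA were set beside these shares. GA neutrophil-like cells were deeper, with a median of 7129.5 UMIs against 5134 in control. With each cell thinned to 2000 UMIs, which left out 29 GA and 26 control neutrophil-like cells, the shares were 2.73% (2.27 to 3.25%) and 0.58% (0.30 to 1.00%). The number of UMIs per cell with a *Ggt1* UMI was not compared at equal depth. In B-like cells, which were assumed to lack the gene, 0.34% of GA and 0.17% of control cells had a *Ggt1* UMI. Their median depths were 6472 and 5934 UMIs. None of 69 GA and 104 control erythroid-like cells had one, where a floor of 3 cells is a share of 4.35% and 2.88%. The share in neutrophil-like cells was above that of B-like cells in both libraries.

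Outside neutrophils *Ggt1* was scarce. Of the other named classes T or NK-like cells had the highest measured level, with 6 GA UMIs (3.18 CPM, 1.17 to 6.92) and 4 control UMIs (2.26 CPM, 0.61 to 5.78). In GA this level was below that of neutrophil-like cells, whereas in control the 2 classes could not be told apart. Macrophage-like cells had 7 and 6 UMIs (0.40 and 0.17 CPM), and no UMI was found in monocyte-, osteoblast-, osteoclast- or endothelial-like cells of either library. In the 42 endothelial-like and 31 osteoclast-like cells of GA, 0 UMIs allow up to 4.10 and 2.55 CPM (Poisson). Both limits lie above the 2.26 CPM of control neutrophil-like cells.

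**Figure D1:**
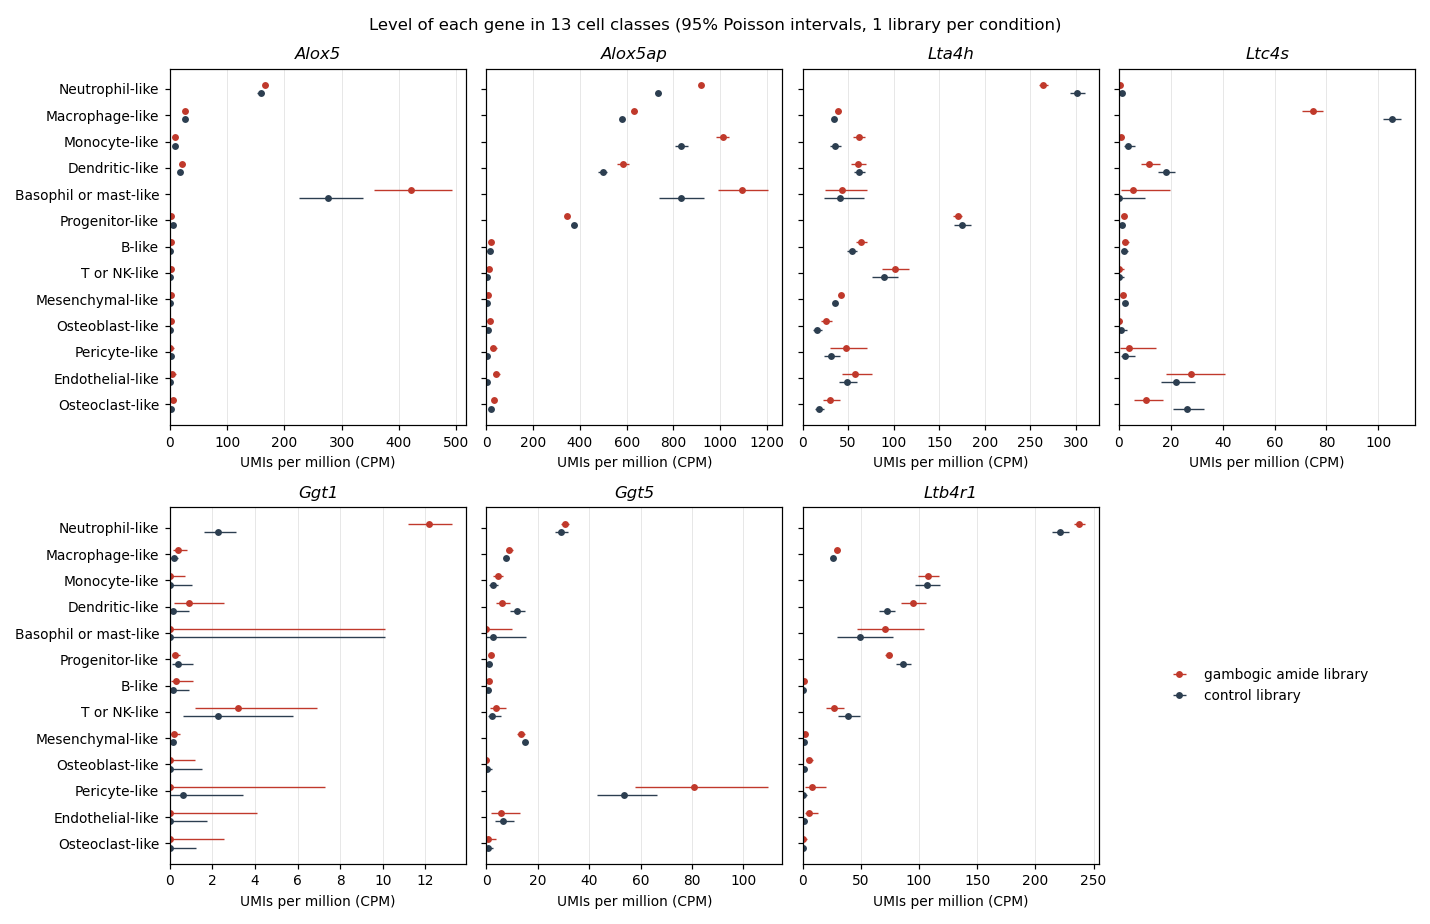
Level of each gene in 13 cell classes, in CPM on the horizontal axes, for the GA library (red) and the control library (dark); points are the summed level and bars 95% Poisson intervals. *Ggt1* stood at 12.2 CPM in GA and 2.26 CPM in control neutrophil-like cells, while *Ggt5* stood at 30.7 and 29.2 CPM there.

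The other genes of the pathway are described next. Sums over all cells mix the number of cells of a class with the level within it, and these cannot be told apart there. Over all cells 4 of the 7 genes had a log2 ratio of at least 1 in either direction, 3 of them towards GA. Among all 15319 genes with at least 200 UMIs, 10.1% were past 1 log2 unit in either direction and 3.13% towards GA. The count includes *Ggt1*, which was chosen for this ratio. Of the other 6 genes, 3 were past 1 log2 unit and 2 of these towards GA, and as the genes were chosen with these values in view, nothing is read from the count. *Ltb4r1* stood at 89.3 CPM in GA and 34.3 CPM in control, a log2 ratio of 1.38 (1.34 to 1.42). *Alox5* stood at 52.2 and 21.1 CPM (1.31, 1.25 to 1.36). *Alox5ap* (0.93) and *Lta4h* (0.90) stayed just below 1, *Ggt5* reached 0.32, and *Ltc4s* was lower in GA at -1.13 (-1.21 to -1.05).

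When each class was given the same share of UMIs in both libraries, all 7 ratios came closer to 0. *Ggt1* went from 3.44 to 2.16 (1.75 to 2.56). *Alox5* came to 0.08, *Ltb4r1* to 0.08, *Alox5ap* to 0.21, *Lta4h* to -0.03 and *Ggt5* to 0.04. *Ltc4s* stayed lower in GA at -0.42 (-0.50 to -0.34). With each cell thinned to 2000 UMIs, the ratios over all cells were 0.88 for *Alox5*, 0.89 for *Ltb4r1* and 2.81 for *Ggt1*, and with the mean of per-cell CPM they were 0.87, 0.83 and 3.14. Both settings give each cell equal weight, and depth and weighting were not tested apart.

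**Figure D2:**
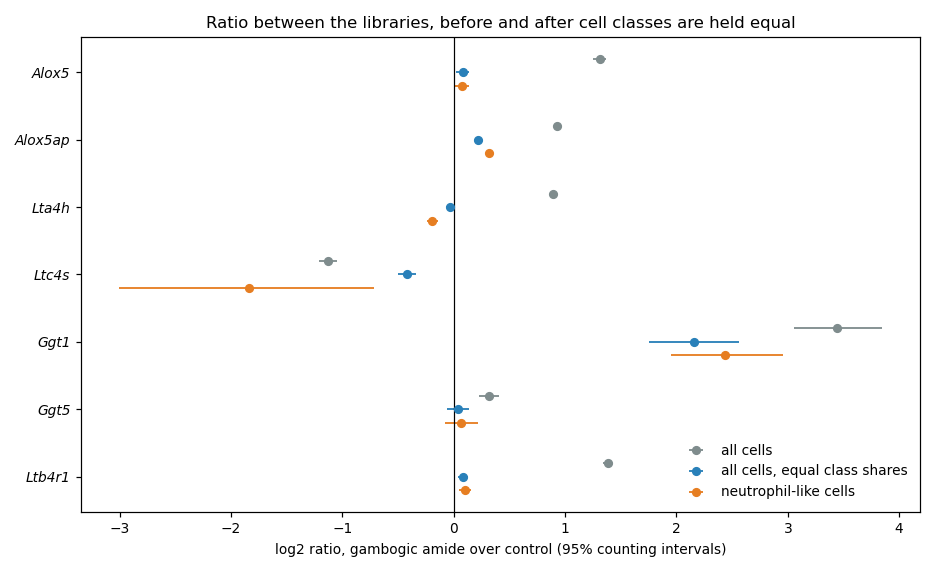
Log2 ratio of GA over control for each gene over all cells (grey), over all cells with each class at the same share of UMIs in both libraries (blue) and in neutrophil-like cells (orange), with 95% intervals for counting error. *Alox5* moved from 1.31 over all cells to 0.07 in neutrophil-like cells, *Ggt1* from 3.44 to 2.43.

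Of the 6 genes with at least 200 UMIs in neutrophil-like cells, 1 was past 1 log2 unit, *Ggt1*, where 0.919% of 8492 genes were. *Ggt1* had enough UMIs there only through the GA library, and most of the UMIs behind its choice lay in these cells, so nothing is read from this count either. Of the other 5 genes, 0 were past 1. In macrophage-like cells 0 of 6 were past 1, with 1.72% of 9707 genes there.

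**Figure D3:**
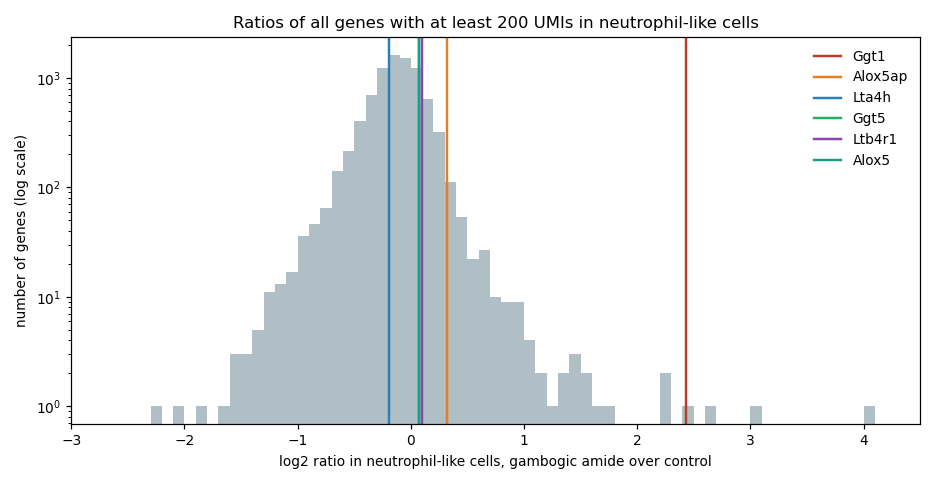
Number of genes (log scale) by their log2 ratio of GA over control in neutrophil-like cells, for the 8492 genes with at least 200 UMIs, with 6 genes of the pathway as lines. *Ggt1* stands at 2.43, and the other 5 lie between -0.19 (*Lta4h*) and 0.32 (*Alox5ap*).

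*Alox5*, which starts the pathway, was highest in basophil or mast-like and neutrophil-like cells. In the 33 GA and 34 control basophil or mast-like cells it stood at 421 CPM (357 to 493) and 277 CPM (226 to 337), a log2 ratio of 0.60 (0.23 to 0.98). The makeup of this small class differed between the libraries. Its 6 eosinophil markers, of which 2 and 5 were detected, summed to 19.1 CPM in GA and 4167 CPM in control. Their part in the *Alox5* ratio was not tested. Neutrophil-like cells had 167 and 159 CPM of *Alox5*, and differed by 0.07 (0.01 to 0.14). Macrophage-like cells had 459 and 929 *Alox5* UMIs, with a ratio of -0.05 (-0.22 to 0.11). B-like cells stood at 1.07 and 0.33 CPM.

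*Alox5ap* was high in all myeloid classes, and the GA library had somewhat more of it in most of them. Neutrophil-like cells had 917 CPM in GA and 735 CPM in control, a log2 ratio of 0.32 (0.29 to 0.35), or 0.44 above the median gene. Monocyte-like cells had 1011 and 834 CPM (0.28, 0.21 to 0.34). Dendritic-like cells had 586 and 497 CPM (0.24, 0.16 to 0.32). In macrophage-like cells the ratio was 0.12, only 0.05 above the median gene of that class, and it was not the same in all their clusters. It was 0.10 (0.07 to 0.14) in the cluster led by *Arg1* and 0.26 (0.20 to 0.33) in that led by *C1qa*. In the small cluster led by *Cd5l* it was -0.59 (-1.35 to 0.15). In progenitor-like cells the *Alox5ap* ratio was -0.12 (-0.18 to -0.06). Plasmacytoid dendritic-like cells went furthest the other way among myeloid classes, with 240 CPM in GA and 331 CPM in control (-0.46, -0.71 to -0.22).

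In mesenchymal-like cells a low level of *Alox5ap* moved with that of neutrophil markers. These cells had 9.09 CPM of *Alox5ap* in GA and 3.90 CPM in control, a log2 ratio of 1.22 (0.94 to 1.51). All 11 neutrophil markers were detected in these cells in both libraries, and their summed level was 1592 CPM in GA and 293 CPM in control. The part of this RNA in the *Alox5ap* ratio was not tested.

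*Lta4h*, which makes leukotriene B4, was found in every named class and was highest in neutrophil-like and progenitor-like cells. Neutrophil-like cells had 264 CPM in GA and 302 CPM in control, a log2 ratio of -0.19 (-0.24 to -0.14). Relative to the median gene this was -0.08. Progenitor-like cells had 170 and 175 CPM, which did not differ beyond counting error (-0.04, -0.13 to 0.05). Monocyte-like cells had the largest ratio of the named classes, with 61.7 CPM in GA and 35.8 CPM in control (0.78, 0.49 to 1.09), at median depths of 15745 and 11128 UMIs per cell. With cells thinned to 2000 UMIs, 7.86% of 318 GA and 5.00% of 300 control cells had a *Lta4h* UMI, and the intervals of these shares overlapped. Markers of the classes with most *Lta4h* were also higher in GA monocyte-like cells. The 11 neutrophil markers, all detected in both libraries, summed to 2843 CPM in GA and 409 CPM in control, and the 8 progenitor markers, of which 8 and 7 were detected, to 157 and 34.5 CPM. Their part in the *Lta4h* ratio was not tested.

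*Ltc4s*, which opens the branch that *Ggt1* and *Ggt5* act on, lay in other cells than *Ggt1*. Macrophage-like cells held 79.7% of its UMIs in GA and 87.3% in control, while in neutrophil-like cells it had 13 and 17 UMIs (0.29 and 1.04 CPM), beside 2.29 and 2.12 CPM in B-like cells. Within macrophage-like cells it stood at 74.7 CPM (70.8 to 78.9) in GA and 105 CPM (102 to 109) in control, a log2 ratio of -0.49 (-0.59 to -0.40). Osteoclast-like cells had 15 and 78 UMIs (10.4 and 26.3 CPM, -1.34, -2.25 to -0.53). Endothelial-like cells, with 27.8 and 21.9 CPM, did not differ beyond counting error (0.34, -0.42 to 1.07).

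The lower *Ltc4s* of GA macrophages was not the same in all macrophage clusters. In the cluster led by *Arg1*, *Lpl* and *Cd36*, it stood at 78.1 CPM in GA and 125 CPM in control (-0.68, -0.80 to -0.57). In the cluster led by *C1qa*, *C1qb* and *C1qc* it stood at 70.8 and 73.5 CPM (-0.05, -0.21 to 0.11). The small cluster led by *Cd5l* and *Fcna*, of 64 GA and 61 control cells, had 34 and 62 UMIs (-1.24, -1.89 to -0.61). The 5 cells of each library with most *Ltc4s* held 11 of these GA and 33 of these control UMIs. A UMI was found in 35.9% (24.3 to 48.9%) of its GA and 45.9% (33.1 to 59.2%) of its control cells, and these intervals overlapped. The unnamed cluster highest for mesenchymal markers went the opposite way, with 5.92 CPM in GA and 2.37 CPM in control (1.32, 0.92 to 1.73), and 72 of its 134 GA UMIs lay in 5 cells.

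*Ggt5*, the neighbour and relative of *Ggt1*, was also found in neutrophil-like cells, at close levels in the 2 libraries. Neutrophil-like cells had 1377 and 479 UMIs of *Ggt5*, or 30.7 CPM (29.1 to 32.3) in GA and 29.2 CPM (26.7 to 32.0) in control, and the log2 ratio of 0.07 had an interval of -0.08 to 0.22 that held 0. The *Ggt1* ratio in the same cells was 2.43. As *Ggt1* was chosen for its ratio, nothing is read from the distance between the 2 genes. *Ggt5* also stood in pericyte-like cells, at 80.9 CPM (58.0 to 110) and 53.8 CPM (43.1 to 66.3), and in mesenchymal-like cells, at 13.3 and 15.1 CPM, where *Ggt1* had 4 and 7 UMIs. In dendritic-like cells it was lower in GA, with 21 and 76 UMIs (-0.96, -1.74 to -0.25).

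*Ltb4r1*, the leukotriene B4 receptor, was led by neutrophil-like cells at 238 and 221 CPM, a log2 ratio of 0.10 (0.05 to 0.16). Monocyte-like cells followed at 108 and 107 CPM (0.01, -0.18 to 0.20). In dendritic-like cells GA was higher at 94.7 against 72.1 CPM (0.39, 0.18 to 0.60). Progenitor-like cells had 73.8 and 86.2 CPM (-0.22, -0.35 to -0.10), and B-like cells 1.37 and 0.65 CPM.

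Neutrophil-like cells were then divided into states, clustered without the leukotriene and glutathione genes listed further on, so that these genes did not shape the states. Cells of the states named dividing, immature, mature and chemokine made up 8.56%, 6.97%, 33.1% and 31.3% of GA and 9.05%, 5.73%, 34.3% and 33.0% of control neutrophil-like cells. These are working names that the marker sums bear out only in part. The mature markers summed to 13289 CPM in GA and 14075 CPM in control in the mature state, and to 27417 and 28887 CPM in the chemokine state. The immature markers summed to 38402 and 38807 CPM in the immature state, and to 93398 and 101578 CPM in the cluster led by *Fcnb* and *Orm1*. One of the 2 clusters of the mature state, with 1210 cells, scored slightly higher for chemokine (1.35) than for mature markers (1.26). Clusters led by *Fcnb* and *Orm1*, by *Olfm4* and *Fcnb*, and by *Cstdc5* and *Stfa2* stayed unnamed. With equal shares of these states in both libraries the *Ggt1* ratio was 2.38 (1.89 to 2.87).

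*Ggt1* was near absent from dividing cells and higher in GA in immature, mature and chemokine cells. Dividing cells had 4 UMIs in GA and 1 in control. Immature cells had 85 and 9 UMIs, or 27.4 CPM (21.9 to 33.8) and 10.4 CPM (4.78 to 19.8), a log2 ratio of 1.39 (0.40 to 2.57). Mature cells had 289 and 17 UMIs, or 27.7 CPM (24.6 to 31.1) and 4.43 CPM (2.58 to 7.09), a ratio of 2.64 (1.94 to 3.44).

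The chemokine state, named from genes such as *Ccl4* and *Cxcl3*, had 80 *Ggt1* UMIs in 1398 GA cells and 0 in 696 control cells. With a floor of 3 UMIs in place of the 0 in control, the fold was 10.1, which is not a limit of an exact interval. A UMI was found in 4.58% of GA cells and in 0 of 696 control cells, where a floor of 3 cells is a share of 0.431%. In GA the highest level stood in the cluster led by *Cstdc5* and *Stfa2*, with 45 UMIs in 110 GA cells and 2 in 54 control cells (52.0 and 6.21 CPM, 3.07, 1.13 to 6.16). In the *Fcnb* and *Orm1* cluster the libraries did not differ beyond counting error, at 32 and 5 UMIs (0.95, -0.42 to 2.67). In the control library the order of the states rested on at most 17 UMIs each.

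The other genes had their own order over the states, and it was alike in the 2 libraries. *Lta4h* stood at 452 CPM in GA and 515 CPM in control dividing cells, at 465 and 556 CPM in the *Fcnb* and *Orm1* cluster, at 67.7 and 60.9 CPM in mature cells, and at 19.1 and 15.1 CPM in the chemokine state. *Ltb4r1* was highest in the *Fcnb* and *Orm1* cluster (403 and 356 CPM) and lowest in the chemokine state (75.3 and 94.4 CPM). *Ggt5* ran the other way, from 2.37 and 2.40 CPM in dividing cells to 58.3 and 63.0 CPM in mature cells. Dividing cells thus had much RNA of the hydrolase that makes leukotriene B4 and little RNA of either gamma-glutamyltransferase, and the proteins were not measured.

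*Alox5* ranged only from 88.1 and 88.3 CPM in dividing to 248 and 280 CPM in immature cells. *Alox5ap* stood at 488 and 478 CPM in dividing cells (0.03, -0.04 to 0.10) and at 1200 and 890 CPM in mature cells (0.43, 0.38 to 0.49), and the intervals of these ratios did not overlap.

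**Figure D4:**
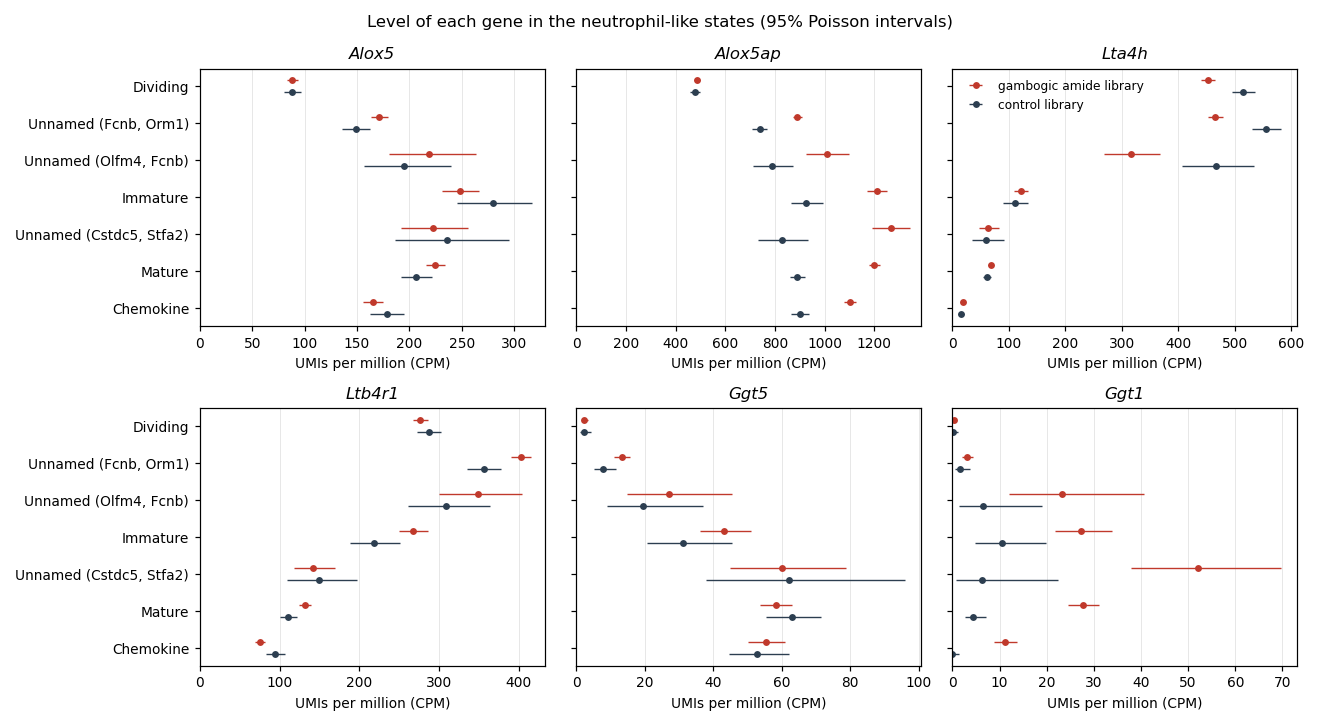
Level of 6 genes in the 7 neutrophil-like states, in CPM, for the GA library (red) and the control library (dark) with 95% Poisson intervals. *Lta4h* stands at 452 and 515 CPM in dividing cells and at 19.1 and 15.1 CPM in the chemokine state, and *Ggt1* stands at 27.7 against 4.43 CPM in mature cells.

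The gene upstream of *Ggt1* was also higher in GA neutrophil-like cells, on few control UMIs. Within 200 kb of *Ggt1* 10 genes had at least 200 UMIs over all cells, and 6 of them had enough UMIs in neutrophil-like cells for a ratio. *Lrrc75b*, a leucine-rich repeat gene transcribed away from *Ggt1*, had 86 UMIs in GA and 7 in control neutrophil-like cells, or 1.92 CPM (1.53 to 2.37) and 0.43 CPM (0.17 to 0.88), a log2 ratio of 2.16 (1.06 to 3.52). It was 49 against 2 UMIs in mature cells (3.17, 1.24 to 6.26). With cells thinned to 2000 UMIs, 0.36% (0.21 to 0.59%) of GA and 0.14% (0.03 to 0.42%) of control neutrophil-like cells had one, and these intervals overlapped. *Lrrc75b* had fewer than 200 UMIs in this class, so no share over all genes stands beside it. Outside neutrophil-like cells it was lower in GA, at 143 and 283 UMIs (-0.45, -0.75 to -0.16). Over all cells its ratio was -0.15 (-0.40 to 0.11). In mesenchymal-like cells, where *Lrrc75b* stood at 1.93 and 2.45 CPM, the libraries did not differ beyond counting error (-0.34, -0.88 to 0.17). The other 5 neighbours, *Ggt5* among them, had ratios between -0.20 and 0.21 in neutrophil-like cells.

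The genes whose levels were most like those of *Ggt1* were sought over 42 points of both libraries, among 15319 genes. The points were the neutrophil states and the other named classes with at least 30 cells in each library. The closest was *Prok2*, which encodes a secreted prokineticin, with a Pearson correlation of 0.90, and the next 9 lay between 0.83 and 0.85 (*Asb7*, *Ifit1bl2*, *Max*, *Gm33326*, *Crtac1*, *Chil5*, *Krt86*, *Gm31583* and *Pnpla1*). The points share libraries, and the neutrophil-like class entered only as its states. As points of both libraries were used, the difference that selected *Ggt1* was part of the pattern that was matched. *Prok2* stood at 31.5 CPM in GA and 11.7 CPM in control neutrophil-like cells, a log2 ratio of 1.43 (1.21 to 1.66). In mesenchymal-like cells *Prok2* went the other way, with 25 UMIs in GA and 272 in control (-2.01, -2.67 to -1.42). These were 57.3% of its control UMIs, and 155 of the 272 lay in 5 cells. Of the other 9, *Chil5* had the largest ratio in neutrophil-like cells at 0.59, and the rest lay between -0.42 and 0.25 there. Among the genes of the pathway, *Ggt5* (0.64) and *Alox5* (0.62) were most like *Ggt1*, and *Ltc4s* was least (-0.45).

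The wider leukotriene list held 22 genes. Over all cells 18 of them had at least 200 UMIs, 5 were past 1 log2 unit towards GA and 1 towards control, and the median ratio was 0.25 beside -0.08 for all genes. Beside these stand the 3.13% of all genes past 1 towards GA and the 10.1% in either direction. Without the 7 genes already described, 11 remained, of which 2 were past 1 towards GA (*Mgst2* and *Cyp4f18*) and 0 towards control. In neutrophil-like cells 12 had at least 200 UMIs. Of these 12 genes *Ggt1* alone was past 1 log2 unit, beside 0.919% of all genes there. The median ratio was 0.00 where the median of all genes was -0.12. *Mgst2*, a microsomal glutathione transferase that can also make leukotriene C4, stood at 131 and 139 CPM in neutrophil-like cells (-0.09, -0.16 to -0.02), where *Ltc4s* was near absent. *Cyp4f18*, which breaks down leukotriene B4 in neutrophils, stood at 225 and 235 CPM (-0.06, -0.12 to -0.01). *Abcc1*, which exports leukotriene C4, was lower in GA at 16.1 against 23.7 CPM (-0.55, -0.73 to -0.37), and *Pla2g4a*, the phospholipase that frees arachidonic acid, at 41.4 against 52.7 CPM (-0.35, -0.47 to -0.23).

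In macrophage-like cells 15 genes of that list had at least 200 UMIs. None was past 1 log2 unit, beside 1.72% of all genes there. Their median ratio was -0.05 beside 0.06 for all genes. *Cysltr1*, the receptor for leukotriene D4, was higher in GA at 45.7 against 31.8 CPM (0.52, 0.39 to 0.66), the opposite of *Ltc4s* in the same cells. *Pla2g4a* was lower at 51.4 against 67.7 CPM (-0.40, -0.51 to -0.29).

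Of the 16 genes of the glutathione cycle, 13 had at least 200 UMIs in neutrophil-like cells. None was past 1 log2 unit, beside 0.919% of all genes there. Their median ratio was -0.11 beside -0.12 for all genes. *Gclm*, the modifier subunit of the enzyme that starts glutathione synthesis, was higher in GA at 43.3 against 32.1 CPM (0.43, 0.29 to 0.57), and *Gclc*, its catalytic subunit, was lower at 11.0 against 17.3 CPM (-0.65, -0.86 to -0.43). *Gsr*, glutathione reductase, stood at 1151 and 1139 CPM (0.02, -0.01 to 0.04), though over all cells its ratio was 1.26. In macrophage-like cells 14 genes of the list had at least 200 UMIs. Past 1 log2 unit was 1 of them, beside 1.72% of all genes there. This was *Slc7a11*, the cystine transporter, at 171 CPM in GA and 372 CPM in control (-1.12, -1.18 to -1.06).

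The other gamma-glutamyltransferase genes gave little signal in neutrophil-like cells, with 0 UMIs of *Ggt6* and 2 and 2 of *Ggt7*. *Ggact*, which was listed with them but is not a gamma-glutamyltransferase, had 21 and 7 there. Of 6 other lipoxygenase genes 1 had at least 200 UMIs over all cells, *Alox12*, at 2.55 and 2.86 CPM (-0.16, -0.35 to 0.03).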

How the data were processed

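Cells of 2 libraries, GA and control, were analysed, 1 library per condition. The values used are the counts of UMIs per gene and cell that the authors deposited as filtered 10x matrices, with genes of build mm10 per the submitters' processing notes. The matrix headers name Cell Ranger 7.0.1, while the methods name another version, and whether intronic reads were counted is not given in the sources used here. The labels give a dose of 1.2 mg/kg for 1 week and the methods 2 mg/kg for 4 weeks, and the methods name kit versions 3.1 and 4. The labels were followed.

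Barcodes with 500 to 140000 UMIs, 200 to 9500 genes and at most 15% mitochondrial UMIs were kept, and the highest Scrublet scores were removed as doublets (656 GA and 540 control barcodes). Cells were clustered with scanpy 1.11.5 on Pearson residuals of 2000 variable genes and 50 components. A reimplementation of Harmony over the libraries was applied, and then Leiden at resolution 1 (igraph 0.11.9). Clusters were named from marker genes, with naming thresholds set after the clusters were seen. Neutrophil-like cells were clustered again at resolution 0.5.

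UMIs were summed per class and library and divided by the class total (CPM). Levels have exact Poisson intervals, shares of cells Clopper-Pearson intervals, and ratios exact conditional binomial intervals (scipy 1.17.1), all at 95% and for counting error only, as cells are not replicates. Ratios at equal class shares have approximate intervals. The scripts were tested on simulated data. The named genes were the 7 genes, the genes of 4 lists and the 10 genes most like *Ggt1*. Genes within 200 kb of *Ggt1* with at least 200 UMIs were named too. The lists were leukotriene pathway, other lipoxygenases, glutathione cycle, and gamma-glutamyltransferases with *Ggact*. The genes and lists were chosen with earlier results of these data known.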

Additional observations from a re-analysis of the deposited data

How the results depend on the processing

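The *Ggt1* ratio in neutrophil-like cells stayed between 2.29 and 2.61 under 15 alternatives, and at equal class shares between 2.01 and 2.24. These alternatives covered doublets, mitochondrial share, depth, scaling, clustering, naming and the cells with most UMIs. Those with equal shares of the neutrophil states and without barcodes found in both libraries were chosen after seeing the data. Over all cells *Ggt1* moved to 2.81 with cells thinned to 2000 UMIs. The number of the 7 genes past 1 log2 unit moved from 4 to 1 with thinned cells and to 2 with the mean of per-cell CPM. It counts only genes with at least 200 UMIs left, so thinning can lower it without a change in ratio. Under every alternative over all cells the *Ggt1* ratio was at least 2.81 and that of *Ltc4s* at most -1.05. At equal class shares *Ltb4r1* turned from 0.08 to -0.00753 with each cell named by its highest marker score. *Lrrc75b* in neutrophil-like cells moved to 4.81 without the 5 cells of each library that held most of it. In control those 5 cells held 6 of its 7 UMIs. No paired analysis was possible because each condition had 1 library. The design cannot tell the treatment from differences between pools of mice, dissociations or libraries, and control values of *Ggt1* rest on few UMIs.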
